A study of Mus musculus with 4 samples.

Results

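The genes that encode the gamma-delta T cell receptor were followed in CD8+ T cells from the blood of patients given an antibody against PD-1, an inhibitory receptor of T cells. They were chosen by name and place, not by their values: every row on chromosome 7 or 14 named as a V, J or C gene of the gamma locus, or as a V, D, J or C gene of the delta locus. The rule found 32 of the 64253 genes in the tables, 21 gamma genes on chromosome 7 and 11 delta genes on chromosome 14. The cells were sorted as CD8+ T cells, with a marker label of CD11a-high, and 1 ng of RNA per sample was turned into cDNA and read in pairs of 101 bases.

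There were 4 groups with 1 library in each: a responder before therapy, a non-responder before therapy, a responder after therapy and a non-responder after therapy. All 4 libraries share the blood source, the CD8+ sort and the antibody schedule, a cycle of 4 doses spaced 3 weeks apart. The labels tie no library taken after therapy to the patient of a library taken before it. The protocol text places every sample after a cycle of treatment, against the group labels of the libraries called before therapy, and the group labels were followed. The titles of both libraries taken before therapy carry a tag for PD-1-positive cells that the libraries taken after therapy lack, so time and this tag cannot be told apart. Genes, build and series text are human, although the organism label names mouse. With 1 library a group, every difference below is a difference between libraries, its interval covers counting error only, and no p-value belongs to a pair.

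A T cell receptor is a pair of chains, alpha with beta or gamma with delta, each joined from V and J segments, with a D segment in the beta and delta chains, and carried on a constant region. In adult human blood most gamma-delta cells pair the V segment TRGV9, joined to TRGJP, with TRDV2, and respond to phosphoantigens, small metabolites sensed through butyrophilins. Cells with TRDV1 are the other main kind, and most gamma-delta cells lack CD8, which a fraction carries. Many alpha-beta T cells keep a rearranged gamma locus and transcribe it, and NK cells transcribe the delta constant gene without a delta chain, so these transcripts do not by themselves count gamma-delta cells. In bulk RNA fewer cells of a type and less RNA per cell cannot be told apart.

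The libraries held between 65500644 and 129773591 counts. The sorted cells carried all 6 markers fixed for CD8 T cells, with summed levels between 3211 and 4536 CPM, the depth-scaled count of a gene, here with edgeR's TMM factors between libraries. All 6 monocyte markers were detected in every library, and their sum was 90.6 and 140 CPM in the responder and the non-responder before therapy, against 1714 and 8099 CPM after therapy. The 12 NK cell markers summed to between 565 and 1043 CPM, with none at 0. The 4 epithelium markers summed to 105 CPM in the responder before therapy and to at most 5.03 CPM elsewhere, where EPCAM, the defining one, was at 0. B cell, platelet and CD4 T cell markers each summed to at most 111 CPM. The part of other cell types in the values below was not tested, beyond the ratios to CD3E, a T cell gene.

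The gene models of these loci overlap, which bears on each level. TRGC2 (ENSG00000227191, chromosome 7, 38239580 to 38368091, hg38) has an entry that overlaps all 20 other gamma genes, and TRGC1 (ENSG00000211689, chromosome 7, 38257879 to 38330821) overlaps 10, TRGC2 among them. TRDC (ENSG00000211829, chromosome 14, 22422546 to 22465787) overlaps 8 other delta genes, TRDV2 and every TRDJ row among them. The entry of TRAC, the alpha constant gene, overlaps 10 of the 11 delta genes, all but TRDV1. The sources used here do not say how reads in shared stretches were assigned. TRGC1 with TRGC2, and the related segments TRGV1 to TRGV8, are near copies of each other, so the split between them is uncertain. No row separates a rearranged transcript from one of the unrearranged locus.

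Of the 32 genes, 14 reached 5 CPM in at least 1 library, 10 peaked between 1 and 5 CPM, and 8 stayed under 1 CPM. TRGVB and TRDD1 had no count at all. The 5 CPM floor used for the pairwise calls fell between TRDJ1, with a highest level of 7.12 CPM, and TRGJP2, with a highest level of 4.02 CPM. The 5 genes fixed as markers of gamma-delta T cells, TRDC, TRDV1, TRDV2, TRGV9 and TRGC1, were all detected in every library. Their sum hardly moved, from 323 to 351 CPM, while the single genes moved several-fold against each other.

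**Figure D1:**
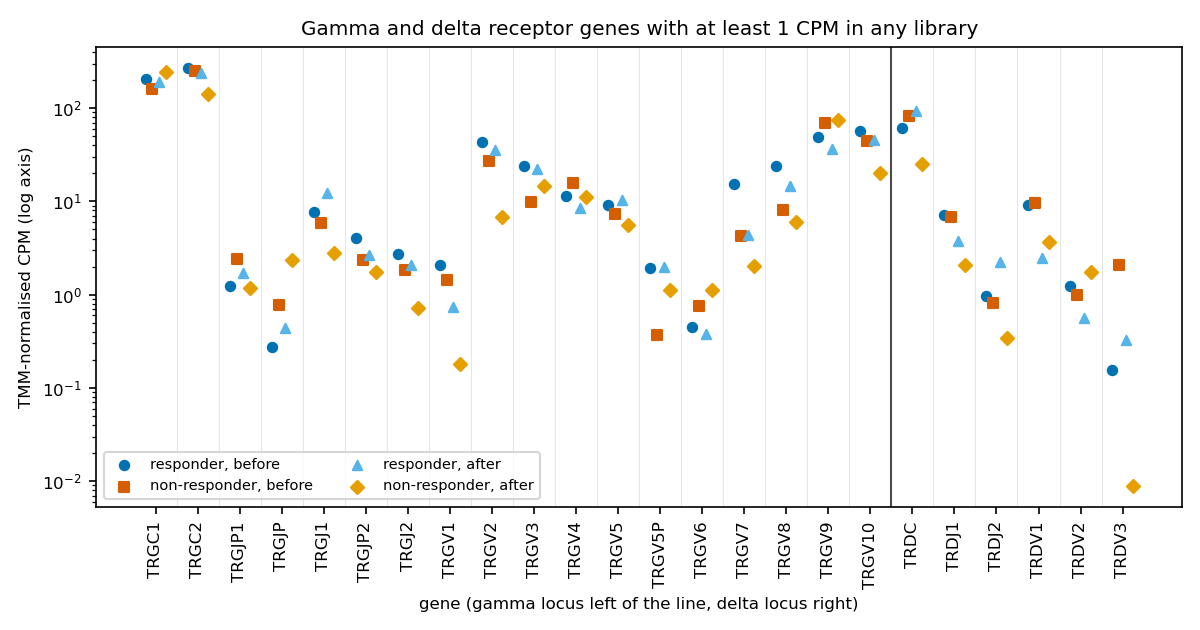
TMM-normalised CPM (log axis) of the 24 gamma and delta receptor genes that reached 1 CPM in any library, with 1 point for each library and the gamma locus left of the line. TRGC2 and TRGC1 lie highest in every library, and TRDC drops to 25 CPM in the non-responder after therapy.

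The constant genes of the gamma locus carried most of its signal. Before therapy TRGC2 stood at 270 CPM (responder) and 250 CPM (non-responder), and after therapy at 238 CPM (responder) and 142 CPM (non-responder). TRGC1 stood at 206, 160, 189 and 245 CPM in the same order of libraries, which is the order of every run of 4 values below. TRGC2 was lowest, and TRGC1 highest, in the non-responder after therapy. TRGC1 therefore made up 43.3%, 39.0% and 44.3% of the counts of both constant genes in the first 3 libraries and 63.3% in the non-responder after therapy (95% Clopper-Pearson interval 62.9% to 63.8%). Per kilobase of the deposited length, TRGC2 stood above TRGC1 in those first 3 libraries, at 115 against 54.0 CPM per kilobase in the responder before therapy. In the non-responder after therapy the levels were close, 60.3 for TRGC2 against 64.3 CPM per kilobase for TRGC1.

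Summed over all 21 rows, the gamma locus was at 732, 613, 628 and 540 CPM, a narrower range than most of its members had. The responder was above the non-responder by a log2 ratio of 0.26 before therapy and of 0.22 after therapy, well under 2-fold.

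The J segments of the gamma locus lie in 2 clusters, with TRGJP1, TRGJP and TRGJ1 before TRGC1, and TRGJP2 and TRGJ2 before TRGC2. TRGJ1 (chromosome 7, 38269491 to 38269540) was at 7.60, 5.80, 12.2 and 2.80 CPM, highest in the responder after therapy and lowest in the non-responder after therapy. TRGJP (chromosome 7, 38273587 to 38273647), the segment of the phosphoantigen-responsive receptor, was at 0.276, 0.782, 0.440 and 2.35 CPM. It was higher in the non-responder at both times, on 23, 51, 56 and 263 counts. The other J rows stayed under the floor: TRGJP1 at 1.24, 2.44, 1.71 and 1.18 CPM, TRGJ2 at 2.75, 1.82, 2.07 and 0.724 CPM, and TRGJP2 at 4.02, 2.36, 2.67 and 1.77 CPM. TRGJP took 1.74%, 5.92% and 2.30% of all TRGJ counts in the first 3 libraries and 26.6% in the non-responder after therapy (interval 23.9% to 29.5%). TRGJ1 took 47.8%, 43.9%, 64% and 31.7%. The 3 J rows before TRGC1 together held 57.4%, 68.3%, 75.2% and 71.7% of TRGJ counts, so their share was highest in the responder after therapy, unlike the TRGC1 share.

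Among the 14 gamma V rows, TRGV9 (ENSG00000211695, chromosome 7, 38317017 to 38318861) was at 48.9 CPM (responder) and 70.1 CPM (non-responder) before therapy, and at 36.4 and 75.2 CPM after it. The non-responder library was the higher one at both times. TRGV2 (ENSG00000233306, chromosome 7, 38362864 to 38363518), a functional segment of the other large gamma family, went the other way, at 43.7 and 27.1 CPM before and 35.8 and 6.83 CPM after therapy. TRGV10 (chromosome 7, 38299811 to 38300322), a segment with an open reading frame that is not known to yield a working chain, was at 57.3 and 44.8 CPM before and 46.0 and 20.1 CPM after therapy. Both were lowest in the non-responder after therapy, the library in which TRGV9 was highest.

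TRGV8 (ENSG00000211696, chromosome 7, 38330343 to 38330935), also functional, was at 24.1 CPM (responder) and 8.17 CPM (non-responder) before therapy, and at 14.7 and 5.95 CPM after it. TRGV3 was at 24.1 and 9.94 CPM before and 22.0 and 14.6 CPM after therapy. For both segments the responder was above the non-responder at each time. TRGV7 (chromosome 7, 38335041 to 38335514), a pseudogene, was at 15.5 CPM in the responder before therapy and between 2.02 and 4.39 CPM in the other libraries. TRGV4 was at 11.4, 15.8, 8.44 and 11.1 CPM and TRGV5 at 9.19, 7.27, 10.3 and 5.59 CPM, neither moving by 2-fold in any pair. The low rows were TRGV1 at 2.09, 1.44, 0.730 and 0.179 CPM, TRGV5P, a pseudogene inside the TRGV5 entry, at 1.95, 0.368, 1.97 and 1.14 CPM, and TRGV6, another pseudogene, at 0.444, 0.751, 0.377 and 1.13 CPM. TRGV11 and TRGVA stayed under 1 CPM.

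Shares of the locus do not depend on the scaling between libraries. TRGV9 took 20.4% of all TRGV counts in the responder (interval 19.9% to 21.0%) and 36.9% in the non-responder (36.0% to 37.7%) before therapy. After therapy its share was 20.1% in the responder (19.5% to 20.6%) and 52.2% in the non-responder (51.4% to 53.0%). The 2 responder libraries lay within 1 percentage point of each other, while the non-responder library after therapy lay 15.4 points above the one before. TRGV2 took 18.2%, 14.3% and 19.7% in the first 3 libraries and 4.74% in the non-responder after therapy (4.42% to 5.08%). TRGV10 took 23.9%, 23.6% and 25.3%, against 13.9% in the non-responder after therapy.

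Longer rows collect more counts, and the TRGV9 row, with a deposited length of 1735 bases, is longer than every other TRGV row but TRGV5. Per kilobase, TRGV10 led in 3 libraries, with 28.3%, 33.8% and 31.2% of the summed TRGV signal. In the non-responder after therapy TRGV9 led with 25.9%, followed by TRGV10 with 23.5%. The share of TRGV9 on this scale was 7.14% and 15.6% in the responder and non-responder before therapy and 7.29% and 25.9% after it. Both non-responder libraries stood above both responder libraries, as with plain counts, while the responder libraries, close on either scale, changed order.

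**Figure D2:**
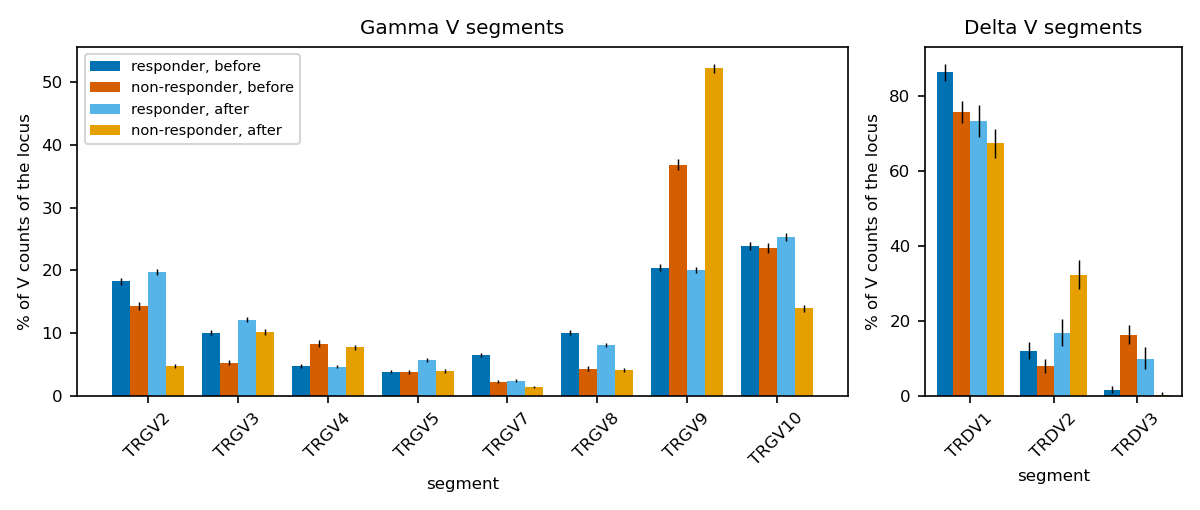
Share of each V segment in the V counts of its locus (percent), with 95% Clopper-Pearson intervals, for the 4 libraries. TRGV9 takes 52.2% of TRGV counts in the non-responder after therapy, and TRDV1 takes the most TRDV counts in every library.

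By segment class, the 6 functional TRGV rows together held 67.4% and 72.8% of TRGV counts in the responder and non-responder before therapy, and 70.3% and 82.8% after it. The 3 open reading frame rows, nearly all TRGV10, held 25.1%, 24.3%, 25.9% and 14.2% in the order of libraries used above. The 5 pseudogene rows held 7.53%, 2.85%, 3.85% and 2.97%. Rows of segments not known to yield a working chain thus held part of the TRGV counts in every library. How many of these counts came from related segments or overlapping entries was not tested.

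TRDC, the only constant gene of the delta chain, was at 60.6 CPM (responder) and 83.2 CPM (non-responder) before therapy, and at 93.9 and 25 CPM after it. The responder was the lower library before therapy and the higher one after it. All 11 delta rows together were at 79.9, 104, 104 and 32.8 CPM. TRDC alone made up 75.9%, 80.2%, 90.3% and 76.2% of their counts, so this sum is no separate observation.

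The summed V rows of the delta chain departed from the constant gene most in the responder after therapy. There TRDC was highest and the V sum lowest. In the non-responder libraries both were lower after therapy, the V sum 2.35-fold and TRDC 3.33-fold. The single V segments differed from each other. TRDV1 (ENSG00000211804, chromosome 14, 22096032 to 22096619) was at 9.07 and 9.64 CPM before therapy and 2.48 and 3.64 CPM after it, in the responder and the non-responder in turn. Both libraries taken after therapy lay below both taken before. TRDV2 (ENSG00000211821, chromosome 14, 22422371 to 22423042) was at 1.25, 1.00, 0.565 and 1.74 CPM, highest in the non-responder after therapy, on 104, 65, 72 and 195 counts. TRDV3 (ENSG00000256590, chromosome 14, 22469041 to 22469698), which lies beyond TRDC in inverted orientation, rested on 13, 134, 42 and 1 counts, or 0.156, 2.06, 0.330 and 0.00893 CPM.

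TRDV1 held 86.6% of the TRDV counts in the responder before therapy (84.1% to 88.8%), 76.0% in the non-responder before therapy (72.9% to 78.8%), 73.5% in the responder after therapy (69% to 77.6%) and 67.5% in the non-responder after therapy (63.6% to 71.3%). TRDV2 held 11.9%, 7.85% and 16.7% in the first 3 libraries and 32.3% in the non-responder after therapy (28.6% to 36.2%). TRDV1 led in each library also per kilobase, with 89.97%, 79.7%, 78.5% and 74.8%. The total behind these shares was between 430 and 872 counts, so they are far less precise than the gamma shares. The library with the largest TRGV9 and TRGJP shares was also the one with the largest TRDV2 share.

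**Figure D3:**
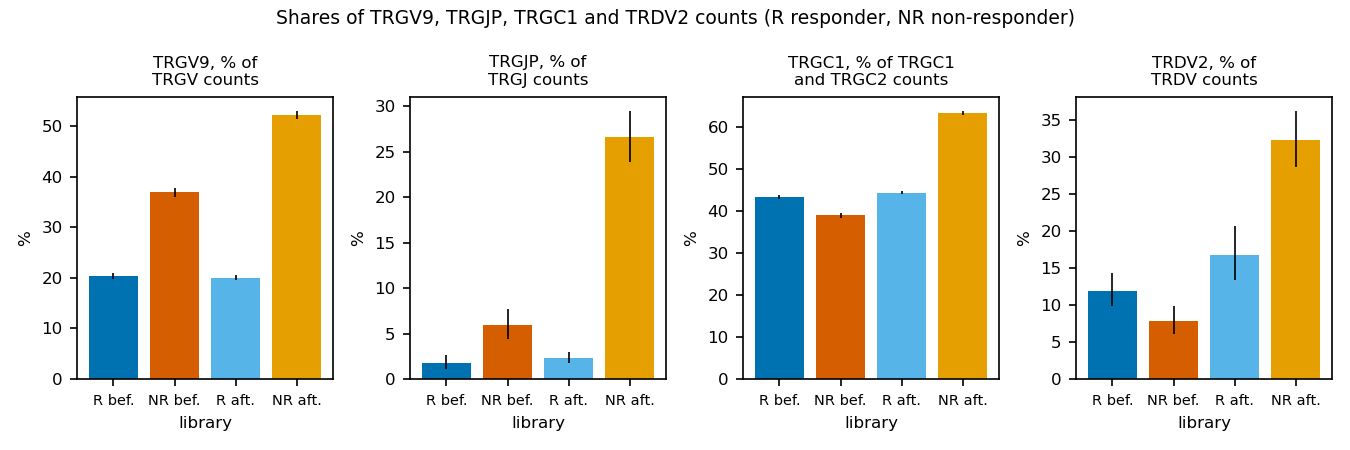
Shares of TRGV9 in TRGV counts, TRGJP in TRGJ counts, TRGC1 in the counts of both gamma constant genes and TRDV2 in TRDV counts (percent, 95% Clopper-Pearson intervals) in the 4 libraries. All 4 shares are highest in the non-responder after therapy, at 52.2%, 26.6%, 63.3% and 32.3%.

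The delta J rows were low. TRDJ1 was at 7.12, 6.75, 3.75 and 2.08 CPM, lower in both libraries taken after therapy. TRDJ2 was at 0.973, 0.813, 2.21 and 0.340 CPM, and its share of TRDJ counts was 33.4% in the responder after therapy against between 10.4% and 14% elsewhere. TRDJ3 had 22 counts in the responder before therapy and 62 in the responder after it, with 0 in both non-responder libraries, or at least 5.74-fold and 18.1-fold higher in the responder against a floor of 3 counts in the non-responder library of the same time. TRDJ4 had 28, 16, 23 and 0 counts. The 3 D rows, which are too short to hold a read of their own, had at most 10 counts.

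Ratios to T cell genes within a library set the receptor genes against the T cell content. CD3E, a subunit of the signalling complex that both receptor kinds share, was at 730, 556, 751 and 597 CPM. Per 100 CD3E counts there were 65.3, 73.6, 56.9 and 64.9 counts of TRGC1 and TRGC2 together, so the gamma constant genes kept close to CD3E. TRDC gave 8.31 and 15.0 counts per 100 CD3E counts before therapy and 12.5 and 4.19 after it. TRGV9 gave 6.71 in the responder and 12.6 in the non-responder before therapy and 4.85 and 12.6 after it. The level of TRGV9 per CD3E was thus the same in both non-responder libraries. The rise of its share there came with lower shares of TRGV10 (-9.63 points) and TRGV2 (-9.54 points). Per 100 CD3E counts, TRGV2 went from 4.88 to 1.14 in these libraries. The 3 TRDV rows together gave 1.43, 2.28, 0.449 and 0.904.

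TRDC and its V segments parted most in the responder after therapy, where there were 3.59 TRDV counts per 100 TRDC counts (3.26 to 3.96). The other libraries had 17.3, 15.3 and 21.6. Of the 12 NK markers, all at 5 CPM or more in 1 of the responder libraries, 2 were at least 2-fold higher after than before therapy in responders and 2 lower, with a median log2 ratio of -0.33. Over all 12265 genes at that level, 8.5% were that much higher and 4.69% lower, with a median of 0.07. KLRF1, an NK cell receptor gene, was at 95.7 CPM in the responder before and 207 CPM after therapy, and NCAM1, the gene of CD56, at 4.26 and 10.1 CPM. KLRC1 and KLRC2, which encode receptors for HLA-E, went down, from 33.4 to 13.0 CPM and from 35.7 to 17.8 CPM. These 4 genes were named after their values were seen. FCGR3A, the gene of CD16, was at 324, 200, 277 and 140 CPM. The 12 NK markers as a whole summed to 822 and 565 CPM before and 788 and 1043 CPM after therapy. In the last sum FCER1G, TYROBP and SYK, which monocytes also express, gave 276, 273 and 104 CPM. The part of NK cells in the TRDC level was not tested.

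Against the alpha-beta receptor, TRGC1 and TRGC2 gave 26.9 counts per 100 counts of TRBC2 in the responder and 39.0 in the non-responder before therapy, and 46.0 and 63.7 after it. TRDC gave 5.42 and 13.3 counts per 100 counts of TRAC, an entry that it overlaps, before and 7.30 and 4.47 after therapy. TRAC was at 1119, 624, 1287 and 559 CPM and TRBC2 at 1773, 1049, 928 and 608 CPM, so these ratios moved with the alpha-beta genes too. The gamma ratio was higher in the non-responder at each time also with CD3E below the line, but at a log2 ratio of -0.17 before and -0.19 after therapy in place of -0.54 and -0.47.

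**Figure D4:**
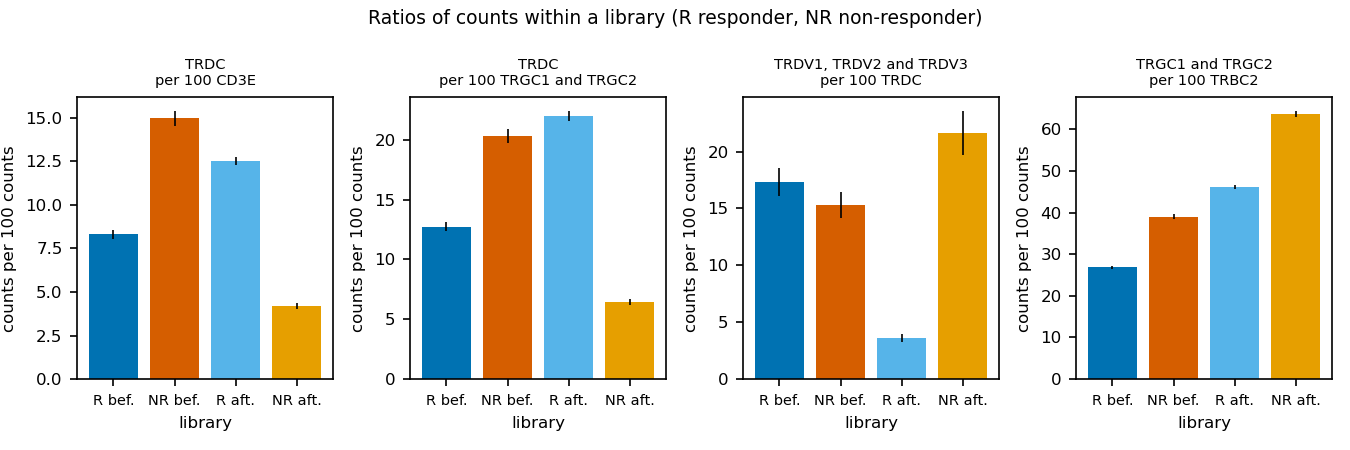
Ratios of counts within each library (counts per 100 counts of the second gene) with exact 95% counting intervals, for the responder (R) and non-responder (NR) before and after therapy. TRDV counts per 100 TRDC counts fall to 3.59 in the responder after therapy. Gamma constant counts per 100 TRBC2 counts run from 26.9 in the responder before therapy to 63.7 in the non-responder after therapy.

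Responder and non-responder were compared first before therapy. TRGV8, TRGV7 and TRGV3 stood above the non-responder by 2-fold or more, 3 of the 14 receptor genes that reached 5 CPM in this pair, and none was 2-fold lower. Over all 12361 genes at that level, 20.4% were at least 2-fold apart and 11.5% higher in the responder, so the members' count was near the background. TRGV8 was 2.95-fold higher (log2 ratio 1.56, 95% counting interval 1.43 to 1.70), TRGV7 3.62-fold and TRGV3 2.43-fold. TRGV9 was 1.43-fold lower in the responder (log2 ratio -0.52, -0.58 to -0.46) and TRDC 1.37-fold lower (-0.46, -0.51 to -0.40). TRDV1 did not differ beyond counting error (-0.09, -0.24 to 0.07), and neither did TRDV2 (0.32, -0.14 to 0.80). The median log2 ratio was 0.35 over the 14 genes and 0.06 over all genes at the floor.

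After therapy, TRGJ1, TRGV10, TRGV8, TRGV2 and TRDC were higher in the responder by 2-fold or more and TRGV9 lower, 6 of the 11 receptor genes that reached 5 CPM in this pair. Over 12434 genes, 14.6% were that far apart, 5.79% higher and 8.85% lower in the responder. TRGV2 was 5.25-fold higher (log2 ratio 2.39, 2.28 to 2.50), TRGJ1 4.38-fold, TRDC 3.76-fold (1.91, 1.85 to 1.97), TRGV8 2.47-fold and TRGV10 2.29-fold. TRGV9 was 2.06-fold lower in the responder (-1.04, -1.10 to -0.99). Under the floor, TRGV7 was 2.17-fold higher in the responder on 4.39 against 2.02 CPM, and TRDV2 3.08-fold and TRGJP 5.35-fold lower. The median log2 ratio was 0.88 over the 11 genes and 0.07 over all genes.

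Among the genes that reached 5 CPM in both response pairs, TRGV8 alone was 2-fold or more apart in the same direction at both times. Below that floor in 1 or both pairs, TRGV7 was also higher in the responder, 3.62-fold and 2.17-fold, and TRGJP lower, 2.83-fold and 5.35-fold. Counting direction of any size over the 24 genes with at least 1 CPM in any library, 14 stood higher in the responder each time and 5 lower each time: TRGV9, TRGJP, TRGV4, TRGV6 and TRDV1. The other 5, TRGC1, TRGJP1, TRDC, TRDV2 and TRDV3, changed sides between the times. Neither directions nor the overlap of the response pairs were counted over all genes, so these numbers have no background share beside them. Many of the rows also overlap each other.

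**Figure D5:**
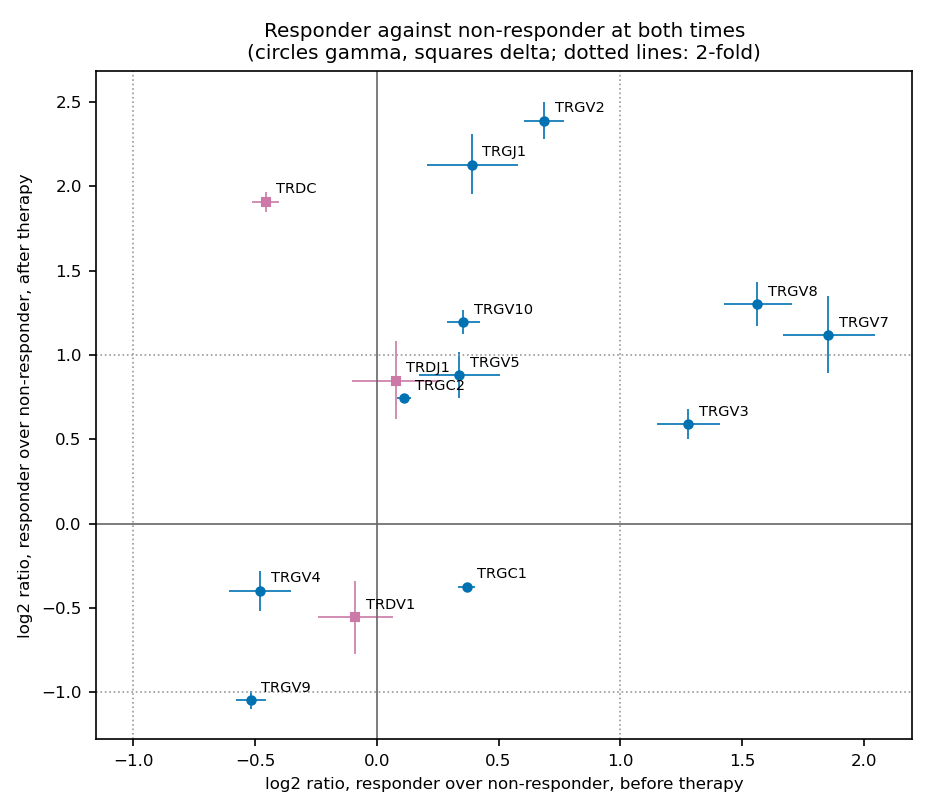
Log2 ratio of the responder over the non-responder before therapy (x axis) and after therapy (y axis). Drawn are the 14 receptor genes with at least 5 CPM in any library, circles for gamma and squares for delta, with dotted lines at 2-fold. TRGV8 lies beyond 2-fold on both axes (1.56 and 1.30), TRGV9 is negative on both (-0.52 and -1.04), and TRDC lies at -0.46 and 1.91.

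The libraries taken after therapy were then set against those taken before it. In responders, TRGV7 and TRDV1 were at least 2-fold lower after therapy, 2 of 14 receptor genes with at least 5 CPM, where 13.2% of 12265 genes were that far apart, 8.5% higher and 4.69% lower. TRDV1 was 3.66-fold lower (log2 ratio -1.87, -2.06 to -1.68) and TRGV7 3.54-fold. TRDC was 1.55-fold higher after therapy (0.63, 0.58 to 0.68), and TRGV9 was 1.34-fold lower (-0.43). The median log2 ratio was -0.30 over the 14 genes and 0.07 over all genes.

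In non-responders, TRGJ1, TRGV10, TRGV2, TRDV1, TRDC and TRDJ1 were at least 2-fold lower after therapy, 6 of 13 receptor genes, and none was 2-fold higher. Over 12641 genes, 23.9% were that far apart and 8.25% lower, while 15.6% were higher. TRGV2 was 3.98-fold lower (log2 ratio -1.99, -2.12 to -1.87), TRDC 3.33-fold (-1.73, -1.80 to -1.67), TRDJ1 3.24-fold and TRDV1 2.65-fold (-1.40, -1.59 to -1.22). TRGC1 was 1.54-fold higher (0.62, 0.59 to 0.65), and TRGV9 differed by 1.07-fold. TRDV3 went from 134 counts to 1, a 230-fold ratio whose log2 interval ran from -13.2 to -5.34. The median log2 ratio was -0.82 over the 13 genes and 0.07 over all genes. The sum of monocyte markers rose in the same pair from 140 to 8099 CPM, and its part in these ratios was not tested. Per 100 CD3E counts, TRDC was 3.57-fold lower after therapy in the non-responder libraries.

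Among the genes that reached 5 CPM in both time pairs, TRDV1 alone was 2-fold or more lower after therapy in both response classes. None was 2-fold higher in both. TRDV1 reached 5 CPM only in the libraries taken before therapy. This overlap of the time pairs was not counted over all genes, so it has no background share beside it. Below that floor in 1 or both pairs, TRGV7 was also lower, 3.54-fold in responders and 2.13-fold in non-responders, and TRGV1 was 2.86-fold and 8.07-fold lower. The pairs share libraries across the response and time comparisons, so their ratios are not independent of each other.

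A model over all 4 libraries with terms for response and time leaves 1 residual degree of freedom, so its estimate of the spread rests on how far the libraries depart from additive effects. It tested 24113 genes, 28 receptor genes among them. edgeR's quasi-likelihood test with Benjamini-Hochberg adjustment called 0 genes for response, or 0.0%, and so 0 receptor genes. At an unadjusted p under 0.05 it listed 2119 genes for response, or 8.79%, and 5 of the 28 receptor genes, TRGV8, TRGV9, TRGV7, TRGV2 and TRDJ3. TRGV8 had a log2 difference of 1.43 ± 0.34 (SE; edgeR adjusted p = 0.558), higher in the responder at both times. TRGV9 had -0.78 ± 0.24 (SE; edgeR adjusted p = 0.559), lower in the responder at both times. For time edgeR called 0 genes, or 0.0%, and at an unadjusted p under 0.05 listed 2732, or 11.3%, with TRDV1 and TRGV7 among the receptor genes. TRDV1 had -1.64 ± 0.45 (SE; edgeR adjusted p = 0.412), lower after therapy in both response classes.

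DESeq2 with the same terms called 896 genes for response, or 3.72%, and 2 of the 28 receptor genes. TRGV8 had a DESeq2 log2 difference of 1.42 ± 0.42 (SE; adjusted p = 0.0256) and TRGV2 1.52 ± 0.49 (SE; adjusted p = 0.0437). For time DESeq2 called 1516 genes, or 6.29%, and 0 receptor genes, with TRDV1 at an adjusted p of 0.0553. limma-voom called 0 genes for response, or 0.0%, and 2 for time, or 0.00829%, no receptor gene among them. No response call on a receptor gene held in edgeR or limma-voom.

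The partners of the receptor in the cell were described with lists of genes set beside the receptor genes. Of 7 genes of the CD3 complex and the co-receptors, 1 was higher in the responder by 2-fold or more before therapy and none after it. That gene was TRAT1, an adaptor bound to the receptor complex, at 71.1, 26.1, 114 and 57.6 CPM. Over all genes at the 5 CPM floor, 11.5% were higher in the responder by 2-fold or more before therapy and 5.79% after it. CD3D was at 821, 619, 580 and 404 CPM, CD247, the zeta chain, at 362, 266, 281 and 168 CPM, and CD8A, a chain of the co-receptor, at 1110, 865, 1561 and 946 CPM. The CD3 and co-receptor genes were thus high in all libraries, with the median log2 ratio of the list at 0.39 before and 0.52 after therapy, beside 0.06 and 0.07 over all genes.

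Of 11 genes of gamma-delta lineage choice and of the IL-17 programme, 9 reached 5 CPM in the response pairs, and 4 were higher in the responder by 2-fold or more before therapy with none lower, where 11.5% of all genes were higher and 8.93% lower. After therapy 1 was higher and 5 were lower, where 5.79% of all genes were higher and 8.85% lower. The median log2 ratio of the list was 0.54 before and -1.07 after therapy, beside 0.06 and 0.07 over all genes. BLK, a kinase of B cells and of IL-17-producing gamma-delta cells, was higher in the responder at both times, at 8.55 and 2.38 CPM before and 21.3 and 9.93 CPM after therapy. ID3, which restrains E proteins downstream of receptor signals, was lower at both times, at 5.12 and 8.36 CPM and then 0.620 and 1.49 CPM. ZBTB16, the factor PLZF of innate-like T cells, was at 22.7, 25.6, 6.37 and 18.9 CPM.

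IL23R, a subunit of the IL-23 receptor, and CCR6, a chemokine receptor, changed sides, and with SOX4 were named after their values were seen. IL23R was at 5.53 and 0.429 CPM before and 1.33 and 6.05 CPM after therapy, and CCR6 at 7.76, 0.552, 6.55 and 13.7 CPM. SOX4 was also lower in the responder after therapy, by a log2 ratio of -3.10, at 2.49, 1.96, 1.46 and 12.6 CPM. IL23R and CCR6 are also expressed by MAIT cells, innate-like alpha-beta T cells, whose 5 markers were all detected and summed to 151, 83.8, 87.6 and 157 CPM. Their receptor segment TRAV1-2 was at 24.9, 3.79, 12.8 and 10.8 CPM, and the part of MAIT cells in the IL23R and CCR6 levels was not tested.

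Of 7 genes of butyrophilins and phosphoantigen sensing, 6 reached the floor, with a median log2 ratio of 0.67 before and 0.53 after therapy, beside 0.06 and 0.07 over all genes. BTN3A3 was higher in the responder by 2-fold or more before therapy, at 156 and 77.2 CPM, and at 188 and 118 CPM after it. RHOB, a small GTPase involved in sensing by the TRGV9 and TRDV2 receptor, was at least 2-fold lower in the responder at both times, at 10.3 and 27.8 CPM and then 8.56 and 41.9 CPM. BTN3A2, a partner of the phosphoantigen-binding BTN3A1, was at 277, 172, 274 and 147 CPM. ABCA1, a lipid transporter, stayed under the floor, at 0.348, 4.95, 0.102 and 2.39 CPM. NKG2D, a stress ligand receptor that gamma-delta, NK and CD8 T cells share, is encoded by KLRK1, which was at 1109, 624, 1143 and 652 CPM. Its adaptor gene HCST was at 424, 390, 308 and 240 CPM. None of the 4 genes of receptor recombination and assembly, RAG1, RAG2, DNTT and PTCRA, reached the 5 CPM floor. Their sum was at most 1.72 CPM, with RAG1 at 1.14, 0.429, 0.126 and 0.0179 CPM.

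Segments shared by the alpha and delta loci bear names of both and were outside the rule. TRAV29DV5 was at 41.7, 7.39, 96.3 and 14.8 CPM and TRAV14DV4 at 15.0, 7.83, 15.4 and 8.01 CPM, both higher in the responder at each time. These rows cannot say which constant gene the segment was joined to. An unnamed chromosome 14 entry that overlaps most delta rows, AE000661.37, was at 31.4, 40.1, 43.4 and 12.7 CPM, in the same order of libraries as TRDC.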

How the data were processed

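Per the labels' protocols, RNA of sorted CD8+ T cells was made into cDNA (SMARTer Ultra Low) and sequenced in pairs of 101 bases. Per the submitters' processing notes, bcl2fastq 1.8.4 and TopHat2 were used with build hg38; the counting tool, strand setting and annotation release were not given in the sources used here. The authors deposited whole-number counts per Ensembl gene, 1 table a library. Of 64253 rows, 4146 on other contigs and 617 sex-informative genes were left out, leaving 59490. The members and lists were chosen with earlier results of these data known. Levels are CPM scaled by TMM factors (edgeR 4.0.16, R 4.3.3) computed on genes that passed edgeR's expression filter. Log2 ratios used a prior count of 0.5, with exact conditional binomial 95% intervals; a gene was set apart at 2-fold with 5 CPM in either library. Shares have Clopper-Pearson 95% intervals. Intervals and floors (3 counts for a count of 0) cover counting error only, since PCR reads are not independent molecules. The additive model used edgeR, with DESeq2 1.42.0 and limma 3.58.1 as alternatives. The SE beside an edgeR estimate was derived as the absolute log2 difference over the square root of the F statistic. DESeq2 reports its own SE. Scripts were tested on simulated data. TRBC1 was not among the kept rows, so TRBC2 alone stood for beta. Named were all members with at least 1 CPM in 1 library, and up to 4 genes a list with the largest smaller response ratio in the same direction; others are said to be chosen after their values were seen. Segment classes are from general knowledge. Values of 1 list gene are not reported here.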

Additional observations from a re-analysis of the deposited data

Results flagged for a closer look

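Several receptor genes moved in opposite directions in the pairs of libraries that share a contrast, with counting intervals on either side of 0. These differences were not tested, since each group holds 1 library. For the responder against the non-responder, TRDC had a log2 ratio of -0.46 before and 1.91 after therapy. All delta rows together, whose counts are mostly those of TRDC, had -0.38 and 1.66. TRGC1 had 0.37 before and -0.37 after therapy.

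For after against before therapy, TRDC had 0.63 in responders and -1.73 in non-responders, and all delta rows together 0.38 and -1.66. TRGJ1 had 0.69 and -1.05, TRGC1 -0.12 and 0.62, and TRGV3 -0.14 and 0.55. TRGV9 had -0.43 in responders and 0.10 in non-responders, and TRGV5 0.16 and -0.38.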

How the results depend on the processing

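No paired analysis was possible because each group holds 1 library, and no library could be left out. In the additive model DESeq2 called 896 genes for response, 2 of them receptor genes, against 0 and 0 in edgeR. For time 2 genes were called without the expression filter, 1516 by DESeq2 and 2 by limma-voom, against 0. With a floor of 1 CPM in place of 5, 5 of 21 receptor genes were set apart in the response pair before therapy. After therapy it was 12 of 22, against 3 and 6 set apart at 5 CPM. In the time pairs 5 and 13 were set apart in responders and non-responders (2 and 6 at 5 CPM). With a floor of 10 CPM the time pairs gave 1 and 3. The share over all genes was not computed at floors of 1 or 10 CPM, so these counts have no background beside them. Scaling by library size alone moved the gamma locus from 0.26 to 0.34 and from 0.22 to 0.24 in the response pairs and from -0.22 to -0.32 and from -0.18 to -0.22 in the time pairs. It moved the delta locus from -0.38 to -0.29 (response, before) and from 0.38 to 0.28 (time, responders). With DESeq2 size factors the gamma locus in responders over time was at -0.19. The responder minus non-responder difference in the TRGV9 share was -16.45 points before and -32.16 after therapy, and with all rows of the locus below the line -4.75 and -8.12, as a larger denominator must give. Per kilobase, an alternative chosen after seeing the data, it was -8.46 and -18.64. For TRDV2 the differences of 4.08 and -15.54 points became 0.60 and -4.76 with all rows. The log2 ratio of gamma to beta constant counts went from -0.54 and -0.47 to -0.50 and -0.39 over all rows and to -0.17 and -0.19 against CD3E, also chosen after seeing the data. That of TRDC to TRAC went from -1.30 and 0.71 to -1.22 and 0.46 over all rows and to -0.85 and 1.58 against CD3E. Over the response and time pairs, signs of V share differences turned in 6 of 63 with all rows of the locus below the line, in 1 of 52 over rows with at least 10 counts in every library and in 9 of 63 per kilobase. In the response pairs they included TRGV3 after therapy per kilobase (1.97 to -2.05 points), TRGV10 before therapy per kilobase (0.35 to -5.49), TRDV1 before therapy over rows with at least 10 counts (10.61 to -2.74) and TRDV1 after therapy over all delta rows (5.94 to -8.72). In the time pairs with all rows they included TRDV2 in responders (4.81 to -1.02) and TRDV1 in non-responders (-8.42 to 1.81). The cause of the moves with tool, scaling and floor was not tested.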
